A study of Homo sapiens with 15 samples.

Results

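The miRNAs that part the single knockouts of the hypoxia-inducible factors were examined in the human glioblastoma line U87-MG, an established culture line. HIF1α-KO cells (genotype Hif1a knock-out) and HIF2α-KO cells (genotype Hif2a knock-out), made with CRISPR/Cas9, were cultured in 1% O2 for 24 h and analysed by miRNA-Seq with 3 libraries each. These 6 libraries, chosen by their genotype and oxygen labels, were compared out of the 15 in the series, which also holds control cells without HIF interference in 1% O2 and in 21% O2 and HIF1α/HIF2α-KO cells in 1% O2, with 3 libraries in each group. The study delivered each guide RNA with the lentiCRISPRv2 vector, and no isolation of single clones is stated in the sources used here, and the share of edited cells is not known here. Nothing states that the replicates came from separate cultures, and the p-values then measure only the spread between libraries, which may be technical. The main fit estimated this spread over all 15 libraries, not only over the 6 compared.

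HIF1α and HIF2α are the oxygen-regulated subunits of the HIF transcription factors. Under low oxygen they escape degradation, pair with HIF1β and bind the hypoxia response element, whose core reads ACGTG or GCGTG. Both bind this element, and their target genes overlap in part. A miRNA is cut from a hairpin in a longer transcript, and either side of the hairpin (the 5p or the 3p arm) can be loaded into the silencing complex, where bases 2 to 8, the seed, pair with target mRNAs. miR-210 is the best known miRNA induced by HIF1α.

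The guide RNAs are shown because they define both groups. Each is printed 5′ to 3′ with the adjacent genomic PAM, the motif that Cas9 requires, in capitals.
HIF1A guide: gaactcacattatgtggaagTGG
HIF2A guide: cttggagggtttcattgccgTGG
On GRCh38, the HIF1A guide matched exon 2 of the 15 exons of HIF1A (chr14:61720482-61720501, the strand opposite to the transcript). The HIF2A guide matched exon 3 of the 16 exons of EPAS1, the gene for HIF2α (chr2:46356215-46356234, the strand of the transcript). The assay counts miRNAs only, and the loss of HIF1α or HIF2α was not checked here.

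The mature miRNAs that separated the knockouts are printed next, from RefSeq on GRCh38.p14, with the seed in capitals. The first 6 are those that passed the adjusted threshold, and the others belong to the families and clusters described with them.
miR-210-3p: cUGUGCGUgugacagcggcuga
miR-210-5p: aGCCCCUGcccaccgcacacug
miR-584-5p: uUAUGGUUugccugggacugag
miR-503-5p: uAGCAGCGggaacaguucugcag
miR-671-5p: aGGAAGCCcuggaggggcuggag
miR-378i: aCUGGACUaggagucagaagg
miR-378a-3p: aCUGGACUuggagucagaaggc
miR-378c: aCUGGACUuggagucagaagagugg
miR-378h: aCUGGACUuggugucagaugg
miR-424-5p: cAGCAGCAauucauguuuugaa
miR-16-5p: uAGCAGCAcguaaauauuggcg
miR-105-5p: uCAAAUGCucagacuccuguggu
miR-767-5p: uGCACCAUgguugucugagcaug
miR-192-5p: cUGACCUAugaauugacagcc
miR-215-5p: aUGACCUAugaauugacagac
miR-204-5p: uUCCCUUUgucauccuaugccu
miR-211-5p: uUCCCUUUgucauccuucgccu
miR-381-3p: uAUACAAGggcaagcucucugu
The miR-378 miRNAs share the seed CUGGACU, miR-424-5p and miR-16-5p share AGCAGCA, miR-192-5p and miR-215-5p share UGACCUA, and miR-204-5p and miR-211-5p share UCCCUUU. The miR-378 miRNAs are nearly identical, as are miR-192-5p and miR-215-5p, and miR-204-5p and miR-211-5p. Reads counted for one of them may therefore stem from another. miR-424-5p and miR-16-5p differ over most of the bases after the seed. Of the 562 miRNAs tested, 513 matched a RefSeq sequence.

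Total counts in the 6 libraries ranged from 10360337 to 20648259, and the detection limit was set at 3 counts, which came to no more than 0.290 CPM (counts scaled to the library total) and covers counting error only. Levels below are CPM scaled with the TMM factors of edgeR, and differences are log2 fold changes of HIF2α-KO over HIF1α-KO cells, with their standard error (SE), from the quasi-likelihood test of edgeR adjusted over all 562 miRNAs. The most abundant miRNA was miR-21-5p, an oncogenic miRNA of glioma, with 19.4% to 23.1% of the counts. miR-9-5p, a miRNA of neural cells, was present in each library, at 1829 to 9462 CPM. The libraries also differed in miRNAs of other cell types, within both groups. Summed CPM of the endothelial miR-126 arms was 4.01 and 6.44 in HIF1α-KO replicates 2 and 1 but 33.4 in replicate 3, and it was 4.28 in HIF2α-KO replicate 2 but 23.6 and 35.7 in replicates 3 and 1. For the miRNAs described in most detail, log2 ratios within the libraries low and within those high in miR-126 are therefore given beside the result. Each such ratio rests on 1 library on one side, HIF2α-KO replicate 2 in the low set and HIF1α-KO replicate 3 in the high set. They are descriptions only. The first principal component held 48.8% of the variance and did not separate the knockouts. In bulk RNA, fewer cells carrying a miRNA and less of it per cell cannot be told apart.

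At an adjusted p under 0.05, 5 miRNAs were higher in HIF2α-KO cells (0.890% of those tested) and 1 was lower (0.178%). The higher miRNAs were miR-210-3p, miR-210-5p, miR-584-5p, miR-503-5p and miR-671-5p, and the lower one was miR-378i. The balance depended on scaling. When libraries were scaled to total counts, the median log2 fold change of all miRNAs moved from 0.05 to -0.13, and 2 miRNAs were then higher and 10 lower. In all, 2 adjusted calls were made without HIF1α-KO replicate 2, 3 without HIF2α-KO replicate 2 and 18 without HIF1α-KO replicate 3. A fit of only the 6 libraries made 0 calls, with 64 miRNAs at an unadjusted p under 0.05. When a fold change of 2 or more and an unadjusted p under 0.05 were required, 11 miRNAs were higher (1.96%) and 7 lower (1.25%), 18 in all. That count was 40 without HIF1α-KO replicate 3, 34 without HIF2α-KO replicate 1 and 31 without HIF2α-KO replicate 3. An unadjusted p under 0.05 alone was met by 56 higher (9.96%) and 42 lower miRNAs (7.47%), which are the shares against which the families below are read. All 3 libraries of HIF2α-KO cells lay above those of HIF1α-KO cells for 62 miRNAs (11.0%) and below for 53 (9.43%).

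miR-210 showed the largest difference among the miRNAs past the adjusted threshold, on both arms. Its hairpin lies in an intron of the long noncoding RNA MIR210HG (chr11:568089-568198, minus strand, GRCh38), and its 3p arm represses mitochondrial genes such as ISCU. miR-210-3p stood at 249.6, 240.5 and 436 CPM in HIF1α-KO replicates 1, 2 and 3, and at 1443, 1996 and 1210 CPM in the HIF2α-KO replicates. All HIF2α-KO libraries lay far above all HIF1α-KO libraries, and hypoxic control cells, at 935 to 1153 CPM, lay between them. This was a log2 fold change of 2.33 (SE 0.32, adjusted p = 0.00240 by edgeR), a 5.02-fold difference. The exact two-sided permutation test over the 6 libraries gave p = 0.1, the smallest it can give with 3 libraries against 3.

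The passenger arm moved with it. miR-210-5p stood at 11.0, 9.14 and 17.4 CPM in HIF1α-KO cells and at 43.5, 50.1 and 56.2 CPM in HIF2α-KO cells, again without overlap. HIF2α-KO cells exceeded HIF1α-KO cells by a log2 fold change of 2.00 (SE 0.30, adjusted p = 0.00323 by edgeR). The ratio of the 5p to the 3p arm was 0.0380 to 0.0441 in HIF1α-KO cells and 0.0251 to 0.0464 in HIF2α-KO cells, so that these ranges overlapped. Within the libraries low in miR-126 the log2 ratios were 3.03 (3p) and 2.31 (5p), and within those high in miR-126 they were 1.61 and 1.52. Fitting only the 6 libraries raised the adjusted p of both arms to 0.0843.

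miR-503-5p was higher in HIF2α-KO cells, and its neighbour miR-424 had log2 fold changes of the same sign. Their hairpins overlap MIR503HG as annotated by GENCODE on chromosome X (MIR503 at chrX:134546328-134546398 in an intron, MIR424 at chrX:134546614-134546711 in an exon, minus strand, GRCh38). Both miRNAs restrain the cell cycle by repressing cyclins. miR-503-5p stood at 34.1, 33.0 and 44.4 CPM in HIF1α-KO cells and at 66.0, 69.9 and 52.5 CPM in HIF2α-KO cells. No HIF2α-KO library fell within the range of HIF1α-KO cells. The log2 fold change was 0.76 (SE 0.15, adjusted p = 0.0254 by edgeR, exact permutation p = 0.1), with log2 ratios of 1.06 and 0.42 within the libraries low and high in miR-126. This call was lost without HIF1α-KO replicate 1 (adjusted p = 0.171) or 2 (0.246) and without HIF2α-KO replicate 1 (0.0637) or 2 (0.0985).

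miR-424-5p, which carries the seed of miR-16, stood at 12.6, 11.4 and 10.3 CPM in HIF1α-KO cells and at 17.2, 26.2 and 23.7 CPM in HIF2α-KO cells. The groups did not overlap, but the difference missed the adjusted threshold, with a log2 fold change of 0.97 (SE 0.24, adjusted p = 0.0626 by edgeR) and log2 ratios of 1.12 and 1.00 within the libraries low and high in miR-126. Of the 8 tested miRNAs of the MIR424/MIR503 cluster, 7 had a positive log2 fold change and 4 an unadjusted p under 0.05 (miR-424-5p, miR-503-5p, miR-542-3p and miR-424-3p), with a median of 0.47 against 0.05 over all miRNAs. That median was 0.17 without HIF1α-KO replicate 3 and 0.30 with total counts. The exception in sign was miR-450a-2-3p (-0.28), at under 2 CPM in each library.

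The seed of miR-424-5p is that of the miR-15/16 family, which represses BCL2 and cyclins. All 6 tested carriers of AGCAGCA (miR-15a-5p, miR-15b-5p, miR-16-5p, miR-195-5p, miR-424-5p and miR-497-5p) had positive log2 fold changes, with a median of 0.41, and 4 of them had an unadjusted p under 0.05 and none an adjusted p under 0.05. The most abundant, miR-16-5p, stood at 1112, 1002 and 1210 CPM in HIF1α-KO cells and at 1198, 1961 and 1628 CPM in HIF2α-KO cells. These ranges overlapped, with a log2 fold change of 0.53 (SE 0.16, adjusted p = 0.102 by edgeR). The log2 ratio was 0.89 in the libraries low in miR-126 and 0.22 in those high in it.

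Among the hosts of miRNAs that passed the threshold, the start regions of MIR210HG and MIR503HG are shown because they hold ACGTG and GCGTG. Each holds 250 bases before to 50 after the RefSeq start (GRCh38.p14, minus strand), with the motifs ACGTG and GCGTG in capitals.
MIR210HG, chr11:568408-568707: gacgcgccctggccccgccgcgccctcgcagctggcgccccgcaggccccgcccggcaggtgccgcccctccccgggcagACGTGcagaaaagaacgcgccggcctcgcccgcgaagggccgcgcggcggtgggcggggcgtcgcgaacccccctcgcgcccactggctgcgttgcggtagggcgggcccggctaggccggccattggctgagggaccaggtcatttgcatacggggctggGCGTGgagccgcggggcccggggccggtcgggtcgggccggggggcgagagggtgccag
MIR503HG, chrX:134546581-134546880: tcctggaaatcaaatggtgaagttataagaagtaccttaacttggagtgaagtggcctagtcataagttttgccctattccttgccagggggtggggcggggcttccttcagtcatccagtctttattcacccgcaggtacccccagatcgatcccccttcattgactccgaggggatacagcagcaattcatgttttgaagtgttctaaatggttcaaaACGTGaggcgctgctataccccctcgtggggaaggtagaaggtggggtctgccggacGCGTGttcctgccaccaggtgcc
Each window holds ACGTG once and GCGTG once on either strand. ACGTG begins 170 bases before the start of MIR210HG and 30 bases before that of MIR503HG, whose window also covers the MIR424 hairpin. This RefSeq start lies inside the MIR424 hairpin, and both mature arms of miR-424 lie before it. The ACGTG of this window is part of the sequence of miR-424-3p. The same windows of SH3TC2 and CHPF2, the hosts of miR-584 and miR-671, hold neither motif. Of 27305 RefSeq promoters of this length, 21.6% hold ACGTG, 36.3% GCGTG and 48.4% at least one of them. These matches are a description of the letters and not of binding.

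miR-584-5p comes from an intron of SH3TC2 (chr5:149062313-149062409, minus strand, GRCh38). It stood at 8.31, 6.16 and 6.65 CPM in HIF1α-KO cells and at 14.3, 14.4 and 12.5 CPM in HIF2α-KO cells. All HIF2α-KO libraries lay near the hypoxic control libraries (12.5 to 12.9 CPM) and all HIF1α-KO libraries below them. Between the knockouts, the log2 fold change was 0.96 (SE 0.19, adjusted p = 0.0224 by edgeR, exact permutation p = 0.1), with log2 ratios of 0.99 and 1.01 within the libraries low and high in miR-126. The call was lost on leaving out any of the replicates except HIF1α-KO replicate 1, with adjusted p-values of 0.246 and 0.0619 without HIF1α-KO replicates 2 and 3 and of 0.0547, 0.0723 and 0.0719 without HIF2α-KO replicates 1, 2 and 3.

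miR-671 was a hairpin with 1 arm past the adjusted threshold and the other of opposite sign. Its 5p arm directs the cleavage of the circular RNA CDR1as, and the hairpin lies in an exon of CHPF2 (chr7:151238421-151238538, plus strand, GRCh38). miR-671-5p stood at 47.7, 39.3 and 63.6 CPM in HIF1α-KO cells and at 95.7, 158 and 84.7 CPM in HIF2α-KO cells. Among the HIF2α-KO libraries, replicate 2 stood highest, and no library of one group reached the other. The log2 fold change was 1.17 (SE 0.25, adjusted p = 0.0299 by edgeR, exact permutation p = 0.1). Without HIF2α-KO replicate 2 the adjusted p was 0.125, and without HIF1α-KO replicates 1 and 2 it was 0.171 and 0.246.

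The 3p arm of miR-671, which was the more abundant in 5 of the 6 libraries, stood at 225, 255 and 232 CPM in HIF1α-KO cells and at 269, 154 and 176 CPM in HIF2α-KO cells. Here the HIF2α-KO libraries lay on both sides of the HIF1α-KO libraries, with a log2 fold change of -0.25 (SE 0.17, adjusted p = 0.459 by edgeR). The ratio of the 5p to the 3p arm was 0.212, 0.154 and 0.274 in HIF1α-KO cells and 0.356, 1.03 and 0.482 in HIF2α-KO cells. In the libraries low in miR-126 the log2 ratio of miR-671-5p was 1.87, and in those high in miR-126 it was 0.50.

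miR-378i was the miRNA called lower in HIF2α-KO cells. It belongs to the miR-378 family, whose founding member lies in an intron of PPARGC1B and is known for its part in energy metabolism. The hairpin of miR-378i lies in an exon of TNFRSF13C (chr22:41923222-41923297, minus strand, GRCh38). miR-378i stood at 1.55, 1.61 and 1.98 CPM in HIF1α-KO cells and at 0.548, 0.381 and 0.665 CPM in HIF2α-KO cells. The groups did not overlap, but the HIF2α-KO values rest on 7, 4 and 7 counts and the HIF1α-KO values on 19, 33 and 22. Its log2 fold change was -1.66 (SE 0.32, adjusted p = 0.0224 by edgeR, exact permutation p = 0.1). Within the libraries low and high in miR-126 the log2 ratios were -2.05 and -1.71. The call was lost without HIF1α-KO replicate 2 (adjusted p = 0.0794) or HIF2α-KO replicate 2 (0.0689).

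The abundant members of the family had log2 fold changes of the same sign and smaller size. miR-378a-3p stood at 676, 795 and 696 CPM in HIF1α-KO cells and at 536, 625 and 461 CPM in HIF2α-KO cells. miR-378c stood at 236, 286 and 229 CPM in HIF1α-KO cells and at 181, 186 and 146 CPM in HIF2α-KO cells. Neither miRNA overlapped between the groups, and neither passed the adjusted threshold, with log2 fold changes of -0.42 (adjusted p = 0.123 by edgeR) and -0.55 (adjusted p = 0.0626). Within the libraries low and high in miR-126, the log2 ratios were -0.23 and -0.48 for miR-378a-3p and -0.49 in both for miR-378c. Of the 9 family members, 8 had a negative log2 fold change and 5 an unadjusted p under 0.05 (miR-378i, miR-378h, miR-378d, miR-378c and miR-378a-3p), with a median of -0.42. The exception, miR-378b (0.38), spanned 0.896 to 5.48 CPM within HIF1α-KO cells.

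Both knockouts were also set beside hypoxic control cells, to show from which side each difference came. These comparisons share the control libraries. In HIF1α-KO cells, 7 miRNAs were lower than in control cells at an adjusted p under 0.05 (1.25%), among them miR-210-3p, miR-210-5p, miR-584-5p and miR-503-5p. Their log2 fold changes against control cells were -1.76, -1.96, -0.85 and -0.73 in HIF1α-KO cells (adjusted p = 0.0126, 0.00382, 0.0378 and 0.0295 by edgeR). In HIF2α-KO cells the values were 0.57, 0.03, 0.11 and 0.03 (adjusted p = 0.400, 0.981, 0.847 and 0.953). For these miRNAs the direct contrast reported above is the test of the difference between both effects.

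miR-671-5p and miR-378i had the larger departure from control in HIF2α-KO cells, although neither passed there. The log2 fold change of miR-671-5p against control was -0.27 in HIF1α-KO cells (adjusted p = 0.769 by edgeR) and 0.91 in HIF2α-KO cells (adjusted p = 0.124). That of miR-378i was 0.49 in HIF1α-KO cells (adjusted p = 0.508) and -1.17 in HIF2α-KO cells (adjusted p = 0.124). The abundant miR-378 members showed another arrangement. miR-378c, for example, was at 0.55 above control in HIF1α-KO cells (adjusted p = 0.0736) and at 0.00 in HIF2α-KO cells (adjusted p = 0.997).

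**Figure D1:**
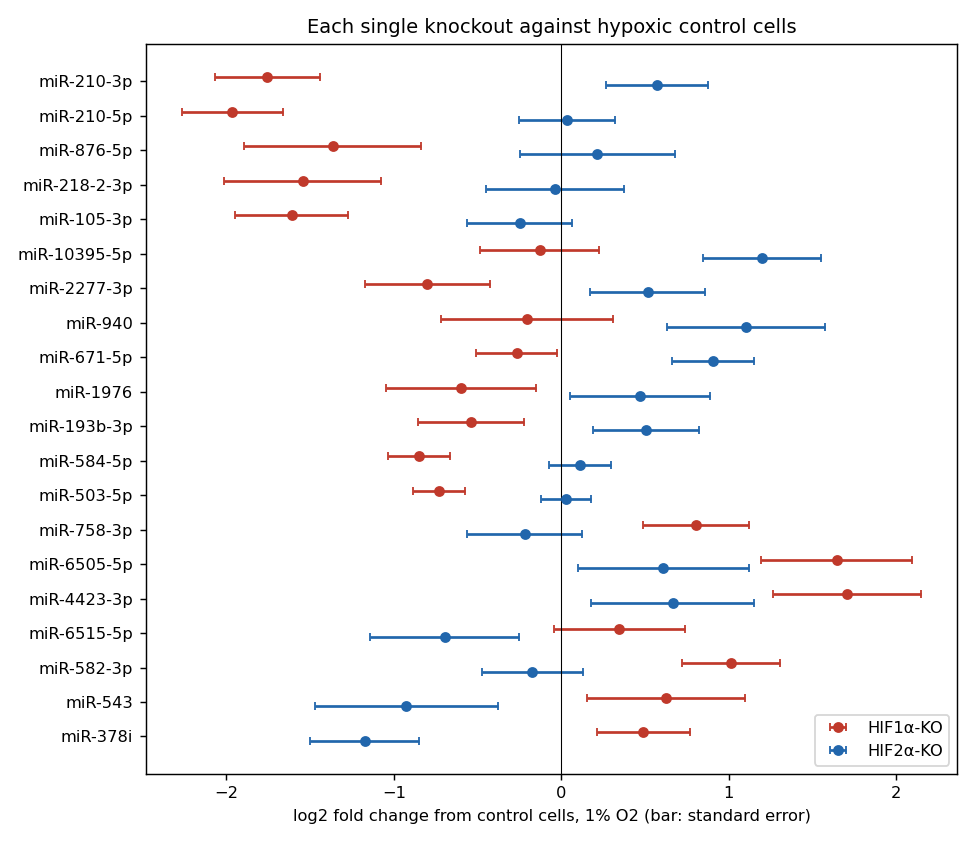
Log2 fold change against hypoxic control cells (x axis, bar: SE) in HIF1α-KO cells (red) and HIF2α-KO cells (blue) for the 20 miRNAs past the adjusted threshold or with a fold change of 2 or more and an unadjusted p under 0.05. miR-210-3p lies at -1.76 in HIF1α-KO cells and at 0.57 in HIF2α-KO cells, whereas miR-10395-5p, miR-940 and miR-671-5p lie near 0 in HIF1α-KO cells and near 1 in HIF2α-KO cells.

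The wider list of 20 miRNAs held 13 that were higher and 7 that were lower in HIF2α-KO cells. For 19 of them the groups did not overlap, and the exception was miR-6515-5p. Among all miRNAs tested, HIF2α-KO libraries lay all above for 11.0% and all below for 9.43%, and the 20 were picked by their difference in these same libraries. All 20 had the same sign within the libraries low and within those high in miR-126. For the 19 without overlap this had to be so, and it says nothing about the miR-126 sets. Of these 20 miRNAs, 12 were under 5 CPM in both groups. The GC content of the mature sequence was 59.1% (median) for the 11 higher and 45.5% for the 6 lower miRNAs of this list that had a RefSeq sequence. Over all miRNAs with a sequence it was 47.8%. With a correction for GC content, added after the data had been seen, all 6 adjusted calls held. Among the more abundant, miR-193b-3p, which represses cyclin D1, stood at 30.6, 24.2 and 33.3 CPM in HIF1α-KO cells and at 48.5, 63.8 and 69.2 CPM in HIF2α-KO cells. Its groups did not overlap, and its log2 fold change was 1.04 (SE 0.32, adjusted p = 0.102 by edgeR). miR-10395-5p stood at 4.56, 3.37 and 6.56 CPM in HIF1α-KO cells and at 9.39, 16.1 and 10.7 CPM in HIF2α-KO cells, with a log2 fold change of 1.33 (SE 0.35, adjusted p = 0.0717 by edgeR). Its log2 ratio was 2.02 within the libraries low in miR-126 and 0.62 within those high in it, and for miR-193b-3p these ratios were 1.22 and 0.82. In the other direction, miR-582-3p, from an intron of PDE4D, stood at 7.99, 12.5 and 6.20 CPM in HIF1α-KO cells and at 3.68, 4.19 and 3.89 CPM in HIF2α-KO cells, with a log2 fold change of -1.19 (SE 0.30, adjusted p = 0.0626 by edgeR) and log2 ratios of -1.29 and -0.71 within these sets of libraries.

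Of the other miRNAs on that list, miR-876-5p (1.58), miR-218-2-3p (1.51), miR-105-3p (1.36), miR-2277-3p (1.32), miR-940 (1.31) and miR-1976 (1.07) had positive log2 fold changes. Negative log2 fold changes were found for miR-543 (-1.55), miR-6515-5p (-1.04), miR-4423-3p (-1.04), miR-6505-5p (-1.03) and miR-758-3p (-1.02). Their adjusted p-values ranged from 0.0626 to 0.252. With means of at most 3.91 CPM in these knockouts and in hypoxic control cells, each rests on few counts.

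Families and genomic clusters were then described by how many tested members lay on either side of 0. The X-linked MIR105/MIR767 cluster is embedded in an intron of GABRA3 and belongs to the cancer-germline genes, which are silent in most adult tissues outside the testis. All 4 tested miRNAs of this cluster had positive log2 fold changes, with a median of 0.73, and all 4 had an unadjusted p under 0.05, with no overlap between the groups. miR-105-5p stood at 38.5, 36.6 and 30.4 CPM in HIF1α-KO cells and at 66.5, 51.8 and 48.6 CPM in HIF2α-KO cells, a log2 fold change of 0.66 (SE 0.16, adjusted p = 0.0626 by edgeR). miR-767-5p stood at 36.7, 29.5 and 42.6 CPM in HIF1α-KO cells and at 64.9, 60.3 and 46.8 CPM in HIF2α-KO cells, a log2 fold change of 0.66 (SE 0.20, adjusted p = 0.10). Neither passed the adjusted threshold. Within the libraries low and high in miR-126, the log2 ratios were 0.46 and 0.92 for miR-105-5p and 0.87 and 0.39 for miR-767-5p. Hypoxic control cells held 67.3 to 83.3 CPM of miR-105-5p, more than any library of either knockout. Against control cells, its log2 fold change was -1.10 in HIF1α-KO cells (adjusted p = 0.00382 by edgeR) and -0.44 in HIF2α-KO cells (adjusted p = 0.220).

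The imprinted cluster of 14q32, from MIR379 to MIR656, lies in the DLK1-DIO3 region and is expressed from the maternal allele. Of the 62 listed miRNAs of this cluster, 23 passed the filter on low counts. Negative log2 fold changes were found for 20 of them, 5 with an unadjusted p under 0.05 and none with an adjusted p under 0.05. The 20 count miR-1185-1-3p and miR-1185-2-3p separately, although both had the same log2 fold change (-0.22). The median was -0.42, and it was -0.23 with limma and -0.70 over the members with at least 10 counts in each library. miR-381-3p was the most abundant of the 5, at 44.4, 61.7 and 37.3 CPM in HIF1α-KO cells and at 25.4, 21.0 and 26.97 CPM in HIF2α-KO cells. The groups did not overlap, with a log2 fold change of -0.97 (SE 0.26, adjusted p = 0.0731 by edgeR) and log2 ratios of -1.33 and -0.51 within the libraries low and high in miR-126. The others were miR-543 (-1.55), miR-758-3p (-1.02), miR-654-3p (-0.82) and miR-379-5p (-0.72). Summed over the cluster, levels were 109.6 to 159 CPM in HIF1α-KO cells and 73.0 to 87.1 CPM in HIF2α-KO cells. The upstream group of the same locus had 1 tested member, miR-127-3p, with a log2 fold change of 0.05 (-0.13 with total counts and -0.10 after quantile normalization). That value was -0.84 without HIF2α-KO replicate 1, 0.37 without HIF1α-KO replicate 3 and -0.33 with the miR-126 sets as a covariate.

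Hypoxic control cells, at 40.9 to 67.9 CPM of miR-381-3p, lay close to HIF1α-KO cells. The log2 fold change of miR-381-3p against control was -0.11 in HIF1α-KO cells (adjusted p = 0.953 by edgeR), -1.08 in HIF2α-KO cells (adjusted p = 0.124) and -1.35 when both factors were knocked out (adjusted p = 0.00705). It was one of 26 miRNAs lower in HIF1α/HIF2α-KO cells than in control cells (4.63%).

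The pair miR-192 and miR-215, which is induced by p53, had negative log2 fold changes that missed the adjusted threshold. miR-192-5p stood at 242, 303 and 239.8 CPM in HIF1α-KO cells and at 175, 196 and 172 CPM in HIF2α-KO cells, a log2 fold change of -0.53 (SE 0.13, adjusted p = 0.0626 by edgeR). miR-215-5p stood at 91.8, 107 and 82.3 CPM in HIF1α-KO cells and at 66.5, 67.8 and 58.1 CPM in HIF2α-KO cells, a log2 fold change of -0.55 (SE 0.14, adjusted p = 0.0650). Neither overlapped between the groups. Within the libraries low and high in miR-126, the log2 ratio of miR-192-5p was -0.47 in both, and that of miR-215-5p was -0.56 and -0.40. The other tested members of the list, miR-194-5p and miR-194-3p, had log2 fold changes of -0.03 and 0.16.

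miR-204 and miR-211, which lie in introns of TRPM3 and TRPM1, also had negative values. miR-204-5p stood at 42.5, 53.1 and 46.0 CPM in HIF1α-KO cells and at 31.0, 26.5 and 38.8 CPM in HIF2α-KO cells, a log2 fold change of -0.56 (SE 0.23, adjusted p = 0.240 by edgeR). Its groups did not overlap, with log2 ratios of -0.85 and -0.40 within the libraries low and high in miR-126. The same held for miR-211-5p, with a log2 fold change of -0.58 and log2 ratios of -0.84 and -0.38. In the MIR532/MIR502 cluster, which lies in CLCN5 on chromosome X, 11 of 14 tested miRNAs had negative log2 fold changes, and 4 had an unadjusted p under 0.05 (miR-188-5p, miR-500b-3p, miR-501-5p and miR-532-5p), with a median of -0.20. That median was -0.47 without HIF2α-KO replicate 2, -0.31 without HIF1α-KO replicate 2 and -0.39 with total counts. In this cluster, miR-500a-5p and miR-500b-5p had the same log2 fold change (0.06) and were counted separately.

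The medians of the remaining lists moved by over 1.5 times or changed sign when single libraries were left out, and the range without single libraries is given with each. In the oncogenic miR-17-92 cluster, 6 of 9 tested miRNAs were above 0 and none had an unadjusted p under 0.05, with a median of 0.15 that was -0.02 when libraries were scaled to total counts and -0.03 after quantile normalization, and that ranged from -0.07 (without HIF2α-KO replicate 1) to 0.17. The let-7 family, a set of differentiation miRNAs that repress RAS and MYC, had 13 of 20 members above 0 and a median of 0.12 (-0.06 with total counts), which ranged from -0.08 (without HIF1α-KO replicate 3) to 0.27 (without HIF1α-KO replicate 1). Of these, let-7i-5p and let-7a-2-3p were above 0 and let-7e-3p below 0 at an unadjusted p under 0.05. The miR-181 family had 8 of 9 tested members above 0 and a median of 0.31, with miR-181d-5p (0.43) at an unadjusted p under 0.05. That median was 0.15 with total counts, 0.16 with limma, 0.14 without HIF1α-KO replicate 3 and 0.10 without HIF2α-KO replicate 2, and at most 0.30 without single libraries. The miR-23/27/24 clusters had a median of -0.10 (-0.28 with total counts), from -0.25 (without HIF2α-KO replicate 1) to -0.08, with miR-3074-3p (-0.80) and miR-24-2-5p (-0.53) at an unadjusted p under 0.05. The miR-183, miR-96 and miR-182 cluster had a median of 0.04 (-0.13 with total counts), from -0.17 (without HIF1α-KO replicate 3 or HIF2α-KO replicate 1) to 0.17 (without HIF1α-KO replicate 1). The list of the hypoxia-linked miR-26, miR-103 and miR-107 had a median of -0.19, but none of its miR-103 arms was tested. Of the 6 tested, 4 lay below 0 and 2 above, miR-107 (0.30) and miR-26b-3p (0.34). Neither this list nor that of miR-183, miR-96 and miR-182 had a member at an unadjusted p under 0.05. The median of the miR-26 and miR-107 members turned to 0.13 with the miR-126 sets as a covariate. It ranged from -0.57 without HIF1α-KO replicate 3 to 0.15 without HIF1α-KO replicate 2. The 4 miRNAs of the miR-671 and miR-7 list had a median of 0.09 (-0.09 with total counts), from -0.09 (without HIF1α-KO replicate 3) to 0.22 (without HIF1α-KO replicate 1 or HIF2α-KO replicate 1). Noncanonical miRNAs had a median of 0.11 (-0.08 with total counts), from -0.02 (without HIF1α-KO replicate 2) to 0.09, with the mirtron miR-877-5p (0.94) at an unadjusted p under 0.05. Of the 7 miRNAs known to target HIF1A mRNA, none had an unadjusted p under 0.05, and their median was 0.32. It was 0.13 with total counts and ranged from 0.07 without HIF2α-KO replicate 2 to 0.24, with 0.15 without HIF1α-KO replicate 2.

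No miRNA on the lists of other cell types passed the adjusted threshold. The endothelial pair had log2 fold changes of 0.53 for miR-126-3p and of 1.72 for miR-126-5p, and summed levels of 4.01 to 33.4 CPM in HIF1α-KO cells and 4.28 to 35.7 CPM in HIF2α-KO cells. Of 8 blood miRNAs 3 were tested, none with an unadjusted p under 0.05 (summed levels 4.54 to 17.7 and 5.23 to 17.1 CPM), and miR-486-5p had 0 counts in all 6 libraries. All 6 epithelial miRNAs tested were above 0 (median 0.32, but -0.39 with the miR-126 sets as a covariate), and 1, miR-200c-3p, had an unadjusted p under 0.05 (summed levels 42.9 to 85.3 and 54.2 to 103.6 CPM). All 3 muscle miRNAs tested were below 0, none with an unadjusted p under 0.05 (summed levels 9.98 to 45.7 and 3.21 to 20.1 CPM). The neuronal miR-124-3p had 0, 3 and 6 counts in HIF1α-KO cells and 0 in each HIF2α-KO library. Their part in the differences above was not tested.

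None of the 5 most abundant miRNAs passed the adjusted threshold. miR-21-5p, miR-100-5p, miR-99a-5p, let-7a-5p and let-7c-5p had log2 fold changes of 0.26, 0.23, 0.23, 0.18 and 0.20, with adjusted p-values of 0.301 to 0.636 by edgeR. Among miRNAs with at least 1000 CPM on average, the smallest p-values belonged to miR-30d-5p (log2 fold change 0.42, adjusted p = 0.10), miR-16-5p and miR-128-3p, a brain-enriched miRNA (-0.61, adjusted p = 0.144). miR-30d-5p stood at 3890, 3828 and 4439 CPM in HIF1α-KO cells and at 5289, 6466 and 4530 CPM in HIF2α-KO cells. The groups did not overlap, and the lowest HIF2α-KO library lay close to the highest HIF1α-KO library. Within the libraries low and high in miR-126, the log2 ratios were 0.74 and 0.15 for miR-30d-5p and -1.15 and -0.11 for miR-128-3p.

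Both arms were tested for 142 hairpins. The arms of one hairpin come from one transcript, but some mature miRNAs, such as let-7a-5p, are made from several hairpins and counted together. In 93 of them (65.5%) the log2 fold changes of both arms had the same sign, with 60 hairpins above 0 on both arms and 33 below. Among all miRNAs tested, 312 were above 0 and 250 below. miR-625 (-0.13) and miR-4755 (0.26) held the same values on both arms, so that their agreement in sign was fixed. Across hairpins, which are not independent replicates and share the same libraries, Pearson's r between the arms was 0.52 and Spearman's rho 0.46. miR-210 lay farthest out on both arms, and miR-671 stood off the diagonal.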

How the data were processed

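The labels of the U87-MG libraries gave genotype, oxygen and replicate number. The values the authors deposited are raw counts for 1707 mature miRNAs, without normalization. HISAT2, StringTie and DESeq2 are named in the submitters' processing notes without a role, and the genome build is not given in the sources used here. Counts of all 15 libraries were fitted in edgeR 4.0.16 (R 4.3.3) with TMM factors, filterByExpr (562 miRNAs kept), group means and the quasi-likelihood test, adjusted by Benjamini-Hochberg at a threshold of 0.05. This script was tested on simulated data. The study's methods name quantile normalization of limma, which was run as an alternative (limma 3.58.1), as was DESeq2 1.42.0. Exact two-sided permutation tests used scipy 1.17.1. No 2 replicates held copies of the same values. Named miRNAs are both arms of miR-210, all past either threshold, the extremes and the members with an unadjusted p under 0.05 of each list, the 5 most abundant, and the 3 with the smallest p from 1000 CPM. Carriers of a shared seed, miR-1297, miR-1252-5p and miR-4510 were named after their values were seen. The members and lists were chosen with earlier results of these data known. Hairpins were placed with GENCODE v29 (GRCh38).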

Additional observations from a re-analysis of the deposited data

How the results depend on the processing

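None of the 20 miRNAs past either threshold changed sign under an alternative that gave it a value (10 of them, miR-378i included, had none with at least 10 counts in each library, and 5 of these none in the fit of only the 6 libraries). Against 6 miRNAs past the adjusted threshold, total counts gave 12, the Wald test of DESeq2 20, no filter 14, at least 10 counts in each library 14, and a GC correction added after seeing the data 15. Fitting only the 6 libraries gave 0 (64 at an unadjusted p under 0.05), and leaving out single replicates gave 2 to 18, the extremes without HIF1α-KO replicates 2 and 3. The replicate number as a block gave 3, and the block with the GC correction 5. Same-numbered libraries did not deviate together (correlations -0.52 to 0.07). With 3 libraries in each group, this cannot tell whether the numbers pair them. At an unadjusted p with a fold of 2 or more, 18 miRNAs became 4 with limma, 68 without a filter, 8 with at least 10 counts, 57 at a fold change of 1.5, and 15 to 40 without single replicates. The causes were not tested. Calls of miR-503-5p and miR-671-5p were also lost with total counts (adjusted p = 0.0947 and 0.0677), with limma (0.0749 and 0.0792) and with the block (0.0722 and 0.0815), that of miR-584-5p with total counts (0.0676), and that of miR-378i with the block (0.0627). Without a filter miR-503-5p (0.325) and miR-584-5p (0.179) were lost. Across miRNAs, deviations of single libraries from the mean of the 6 libraries followed the GC content of the mature sequence (Spearman's rho -0.42 to 0.46), in opposite directions within each group. Low counts limit the 12 miRNAs under 5 CPM.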

Other observations

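Some miRNAs had large fold changes between the knockouts without passing the test of edgeR. miR-1297, which carries the seed of miR-26, had a log2 fold change of -2.74 (adjusted p = 0.306), and its 6 libraries held 23, 23 and 1 counts in HIF1α-KO cells and 0, 4 and 1 in HIF2α-KO cells. miR-1252-5p had one of -2.49 (adjusted p = 0.308 by edgeR), from 13, 20 and 0 counts in HIF1α-KO cells and 0, 0 and 4 in HIF2α-KO cells. miR-4510 had one of 1.55 (adjusted p = 0.459 by edgeR), at 6.36, 7.04 and 30.9 CPM in HIF1α-KO cells and at 61.4, 4.76 and 63.2 CPM in HIF2α-KO cells. For miR-4510, the libraries low in miR-126 (HIF1α-KO replicates 1 and 2 and HIF2α-KO replicate 2) were the low ones in both groups. For miR-1297, the same 3 libraries held the highest counts.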
